A study of Homo sapiens with 6 samples.

Results

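Dysferlin, myoferlin and 7 annexins were followed in Kelly cells after knockdown of METTL3. These 9 genes were chosen by name (DYSF, MYOF, ANXA1, ANXA2, ANXA4, ANXA5, ANXA6, ANXA7 and ANXA11) out of 19923 genes in the count tables, and DYSF was picked because it was strongly higher in the knockdown. Its values in that comparison are therefore a description and carry no test. Kelly is an established human neuroblastoma line with amplified MYCN, labelled wild type. All 6 libraries are RNA-seq of poly(A) RNA from cells transfected with siRNA by lipofection and collected after 72 hours. The control group (siControl, 3 libraries) received a control siRNA, and the knockdown group (siMETTL3, 3 libraries) received siRNA against METTL3, the catalytic subunit of the enzyme that places N6-methyladenosine (m6A) on mRNA. The labels do not say whether the libraries of a group come from separate cultures, so the tests measure the spread between these libraries, which may be technical. They also do not say how many siRNA sequences against METTL3 were used.

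Ferlins are large membrane-anchored proteins with a row of calcium-binding C2 domains, and they bring vesicles to membranes for fusion. Dysferlin is best known from skeletal muscle, where it takes part in resealing tears of the plasma membrane and where its loss causes muscular dystrophy. Annexins are smaller soluble proteins that bind acidic phospholipids when calcium rises. At a wound they gather on the damaged membrane, bridge it to vesicles and help to close the gap. S100 proteins, calpains, caveolae, the ESCRT machinery and lysosome exocytosis act beside them.

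METTL3 writes m6A mostly within a short consensus of which GGACT (in DNA letters) is a common form, and m6A is known to be dense around stop codons. The occurrence of GGACT nearest to the stop codon is shown for 4 of the members and the related ferlin gene OTOF. The motif is in capitals with 10 bases on each side. The mRNA strand is read 5′ to 3′ from the canonical transcript of GENCODE release 44 (GRCh38).
DYSF: cttcagctgaGGACTctcctgccct
OTOF: tcagtggcttGGACTctttcccatc
ANXA2: gaaagctctgGGACTgagctgtaca
ANXA5: atacatctggGGACTataagaaagc
ANXA6: gtggtggtgaGGACTagggccacag
In DYSF the motif (chr2:71686493-71686497, plus strand) began directly after the last base of the stop codon. In ANXA6 (chr5:151101450-151101454, minus strand) it ran into the stop codon, with its A 4 bases before the last base of that codon. The nearest motif of ANXA5 (chr4:121668509-121668513, minus strand) lay in the coding sequence with its A 43 bases before that base. Those of OTOF (chr2:26457977-26457981, minus strand) and ANXA2 (chr15:60347230-60347234, minus strand) lay in the 3′ UTR, with their A 259 and 398 bases past it. The nearest motifs of the members not printed lay farther from the stop codon than those of DYSF, ANXA6 and ANXA5. In MYOF, ANXA1 and ANXA4 they lay in the coding sequence, with their A 196, 469 and 772 bases before the last base of that codon. In ANXA11 it lay in the 3′ UTR, with its A 870 bases past that base. ANXA7 held no GGACT in its canonical transcript of 2443 bases.

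DYSF held 8 GGACT in 6775 bases, 6 of them in the coding sequence, or 1.18 per kb. ANXA2 held 2 in 1554 bases (1.29 per kb), OTOF 10 in 7214 bases (1.39 per kb) and ANXA6 7 in 2889 bases (2.42 per kb). The median over the 14591 tested genes with a canonical transcript was 0.929 per kb, and 8.71% of them held none. DYSF had a higher density than 64.8% of these genes, ANXA2 than 70.6%, OTOF than 74.9% and ANXA6 than 96.0%. ANXA11, at 1.34 per kb, had a higher density than 73.0%, and so stood above DYSF and ANXA2. MYOF stood above 55.7%, ANXA4 above 38.3%, ANXA1 above 35.4% and ANXA5 above 28.1%. A match to these letters is a description of the sequence and not a measured m6A site. The member with the highest density, ANXA6, did not pass the test for a change, and neither did ANXA11, ANXA4 and ANXA5, as given below. ANXA2 and OTOF were higher in siMETTL3, and ANXA7, which held no GGACT, was lower. Whether the density of GGACT bears on a change was not tested.

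The 250 bases before the RefSeq transcription start (GRCh38.p14, gene strand, 5′ to 3′) are shown for DYSF, OTOF and ANXA2, the genes of these families with the largest differences between the groups. Capitals mark GGGCGG (the GC box), TGANTCA (the AP-1 motif) and TATAAA, searched on both strands, where the GC boxes of ANXA2 overlap each other.
DYSF: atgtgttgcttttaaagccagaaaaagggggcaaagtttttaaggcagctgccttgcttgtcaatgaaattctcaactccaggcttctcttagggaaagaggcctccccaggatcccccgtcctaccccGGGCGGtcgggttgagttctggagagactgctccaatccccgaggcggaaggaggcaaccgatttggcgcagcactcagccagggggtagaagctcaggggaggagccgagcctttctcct
OTOF: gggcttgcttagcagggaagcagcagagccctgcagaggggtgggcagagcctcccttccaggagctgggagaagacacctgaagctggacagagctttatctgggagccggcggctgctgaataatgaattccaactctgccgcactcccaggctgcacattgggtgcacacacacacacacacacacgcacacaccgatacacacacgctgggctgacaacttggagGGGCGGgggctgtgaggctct
ANXA2: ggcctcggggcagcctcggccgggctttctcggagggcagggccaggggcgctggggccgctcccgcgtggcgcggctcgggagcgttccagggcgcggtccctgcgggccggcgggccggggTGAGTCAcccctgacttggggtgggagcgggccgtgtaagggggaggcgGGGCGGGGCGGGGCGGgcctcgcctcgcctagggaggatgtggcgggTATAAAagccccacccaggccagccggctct
These windows are chr2:71453311-71453560 for DYSF (plus strand), chr2:26558757-26559006 for OTOF (minus strand) and chr15:60397987-60398236 for ANXA2 (minus strand). The DYSF and OTOF windows each held 1 GC box, and the ANXA2 window held 3 GC boxes, 1 AP-1 motif and 1 TATAAA. Of 35116 RefSeq promoter windows of the same length, 42.6% held GGGCGG, 6.57% held TGANTCA and 10.7% held TATAAA. The E-box CACGTG, present in 6.34% of all windows, was not in these letters. The RefSeq start of DYSF lies 161 bases from the start of the gene in the count tables, that of ANXA2 4897 bases and that of OTOF shown here 58 bases. OTOF has a second RefSeq start, 80574 bases inside the gene, whose window (chr2:26478125-26478374) held none of these motifs.

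Total counts per library ranged from 15430000 to 21565013, and siControl replicate 3 was the shallowest. METTL3 was at 1154, 1055 and 847 counts in siControl and at 679, 692 and 705 in siMETTL3. Its normalised level fell from 54.2 ± 1.80 to 33.04 ± 1.27 CPM (counts per 1000000 counts of the scaled library; SD, n = 3), so that 61.0% remained (edgeR quasi-likelihood test, FDR 4.68e-06). The METTL3 counts cover its whole gene span, of which canonical exons make up 14.99%, so reads of unspliced RNA can enter them. TOX4 shares 7.896% of that span, and reads over several genes were counted for each. The share of mature METTL3 mRNA that remained was not measured. The defining markers of the labelled cell type were present: 9 of 9 listed markers had at least 855 counts in every library. They also moved between the groups: 5 were higher and 1 was lower in siMETTL3, beside 18.6% and 19.2% of all tested genes. The sum of the 9 markers was 5026 to 5544 CPM in siControl and 7477 to 7906 CPM in siMETTL3. The marker counts that follow are not scaled for depth. MYCN was at 43393 to 65488 against 91443 to 102904 counts, TH, the enzyme of catecholamine synthesis, at 2484 to 4205 against 9883 to 12099, and the transcription factor gene ISL1 at 1666 to 2154 against 855 to 1018. DYSF is known from muscle and monocytes, and markers of both were looked up. Of 10 skeletal muscle markers, 7 had at most 20 counts in any library, with MYF5 at 0 in all 6 and MYOD1 at 0 in every siControl library and at 0 to 12 in siMETTL3. RYR1 and CHRNA1 reached 27 and 21 counts, and TTN was at 1358 to 1862. The summed muscle markers lay between 77.7 and 92.9 CPM in siControl and between 83.1 and 91.3 CPM in siMETTL3. Of 6 monocyte markers, 5 had at most 20 counts, and CSF1R had 1035 to 1488. The monocyte sum was 67.8 to 75.5 CPM in siControl and 49.1 to 54.2 CPM in siMETTL3. Fibroblasts and endothelium express ANXA1 and ANXA2. Among 6 fibroblast markers, COL1A2, LUM and DCN had at most 8 counts. COL1A1 had 32 to 68 counts in siControl and 98 to 117 in siMETTL3, COL3A1 had 36 to 62 against 28 to 40, and PDGFRB had 1181 to 1999 against 1653 to 1891. The fibroblast sum was 85.3 to 99.2 against 87.2 to 93.8 CPM. Among 4 endothelial markers, CDH5 had at most 4 counts and VWF had 58 to 106 in siControl and 137 to 180 in siMETTL3. PECAM1 had 13 to 17 against 4 to 14 and KDR 10 to 26 against 4 to 16. The endothelial sum was 5.64 to 7.001 against 7.14 to 9.84 CPM. The part of these markers in the results was not tested.

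DYSF (ENSG00000135636 in GENCODE release 44, chromosome 2, 71453722 to 71686768, plus strand) is a gene of 233 kb whose canonical transcript has 56 exons and 6.78 kb. It had 100, 104 and 76 counts in siControl and 679, 667 and 647 in siMETTL3. Normalised, these were 4.64, 5.21 and 5.04 CPM against 32.99, 30.6 and 31.5 CPM. The lowest siMETTL3 library lay far above the highest siControl library, and the libraries within each group lay close together. The means were 4.96 ± 0.293 and 31.7 ± 1.19 CPM (SD, n = 3), and the fitted log2 fold change was 2.68 with a standard error (SE) of 0.105, a 6.40-fold higher level. DYSF stood 14th from the top by log2 fold change among 15311 tested genes; this rise is what it was picked for. The counts cover the whole gene span, of which the canonical exons make up 2.91%, so reads of unspliced RNA can enter them. The span overlaps no other gene of the tables. The share of intronic reads was not measured. In bulk RNA, more cells with DYSF transcripts and more transcripts per cell cannot be told apart, and this holds for every gene below.

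**Figure D1:**
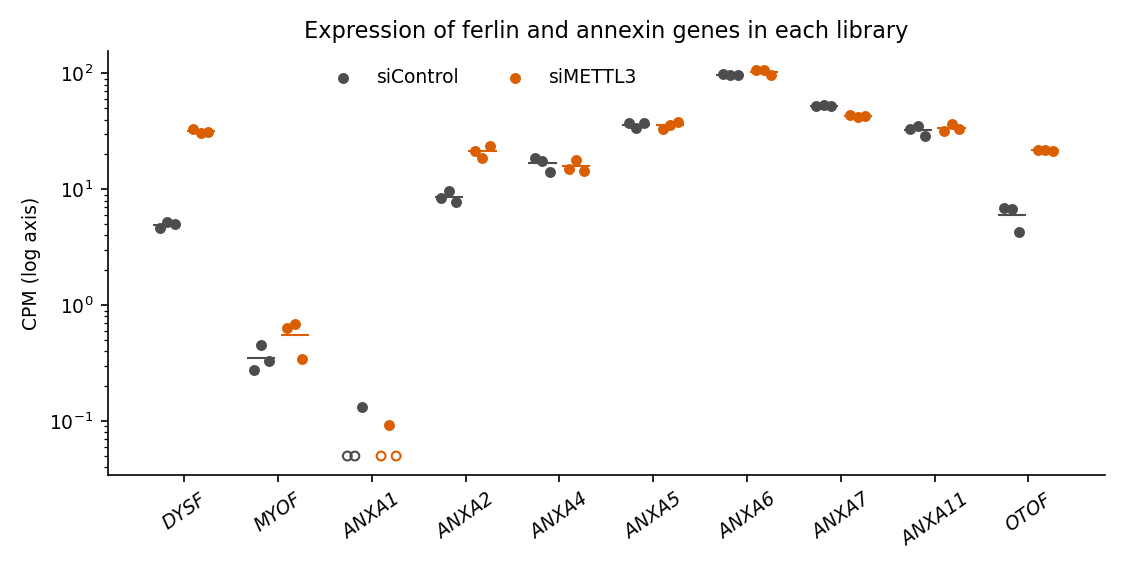
Level in CPM (log axis) of the 9 members and of OTOF in each of the 3 siControl libraries (grey) and 3 siMETTL3 libraries (orange); points are libraries, lines are group means, and open points at the bottom are libraries with 0 counts. DYSF (4.64 to 5.21 against 30.6 to 32.99 CPM), OTOF and ANXA2 separate upward and ANXA7 slightly downward, while MYOF and ANXA1 lie near the floor.

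MYOF (chromosome 10, 93306429 to 93482334), the closest relative of dysferlin, which acts in myoblast fusion and in endothelial cells, was barely present. It had 6, 9 and 5 counts in siControl and 13, 15 and 7 in siMETTL3, or 0.353 ± 0.0882 and 0.554 ± 0.187 CPM (SD, n = 3). The groups overlapped, and the gene was too low to enter the test. ANXA1 (chromosome 9, 73151865 to 73170393), the annexin that pairs with S100A11, had 0 counts in 4 libraries and 2 in siControl replicate 3 and siMETTL3 replicate 2. In the 4 libraries at 0, a count of 0 allows up to 3 counts, or 0.139 to 0.150 CPM of total counts, for counting error only and if each count were a separate fragment. Both mates of a read pair appear to be counted: of the values from 1 to 9 in the tables, 75.6% were even numbers. A count of 2 may then be a single fragment, and the true limit is higher than the one given.

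Of the 8 members besides DYSF, 6 entered the test. In the siMETTL3 libraries, 1 was higher (ANXA2), 1 was lower (ANXA7) and 4 did not pass an FDR of 0.05. Over all 15311 tested genes 37.8% passed, 18.6% higher and 19.2% lower. The groups did not overlap for 2 of the 6, against 49.9% of all tested genes. Every FDR is from edgeR's quasi-likelihood test with adjustment over all tested genes.

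ANXA2 (ENSG00000182718, chromosome 15, 60347134 to 60402883, minus strand) encodes the annexin that forms a tetramer with S100A10 and is recruited early to wounded membrane. It had 180, 192 and 118 counts in siControl and 441, 410 and 483 in siMETTL3. In CPM these were 8.35, 9.61 and 7.83 against 21.4, 18.8 and 23.5. All siMETTL3 libraries lay above all siControl libraries. ANXA2 rose by 1.30 on the log2 scale (SE 0.121, 2.46-fold, FDR 3.17e-06). The reference holds 3 ANXA2 pseudogenes of similar sequence, and the headers show no option to count reads that map to several places, so its absolute level is uncertain.

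ANXA7 (ENSG00000138279, chromosome 10, 73375101 to 73414076, minus strand) encodes an annexin that binds the ESCRT adaptor ALG-2, the product of PDCD6. It was at 52.8, 53.1 and 52.0 CPM in siControl and at 43.98, 42.3 and 43.4 CPM in siMETTL3. The spread within each group was small, and the groups did not overlap. ANXA7 fell by 0.28 on the log2 scale (SE 0.064, FDR 0.00333), to 82.2% of the control level.

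The other 4 tested annexins did not pass. ANXA6, an annexin with a repeated core that forms caps over membrane wounds in muscle, had the most counts of the family. It was at 99.6, 96.1 and 97.7 CPM in siControl and at 107, 107 and 97.3 CPM in siMETTL3 (log2 fold change 0.09, SE 0.060, FDR 0.284). The lowest siMETTL3 library lay within the siControl range. ANXA5, which lays ordered arrays on phosphatidylserine, was at 36.2 ± 1.81 and 35.8 ± 2.70 CPM (SD, n = 3; log2 fold change -0.016, SE 0.081, FDR 0.899). ANXA11, which binds ALG-2 as well and links RNA granules to lysosomes, was at 32.5 ± 3.10 and 33.8 ± 2.47 CPM (SD, n = 3; log2 fold change 0.05, SE 0.089, FDR 0.681). ANXA4, which curves membranes at wound edges, was at 16.8 ± 2.33 and 15.8 ± 1.82 CPM (SD, n = 3; log2 fold change -0.10, SE 0.123, FDR 0.581), and 16.4% of its span is shared with AAK1. The groups overlapped for all 4. A test that was not passed does not show that the levels were equal.

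**Figure D2:**
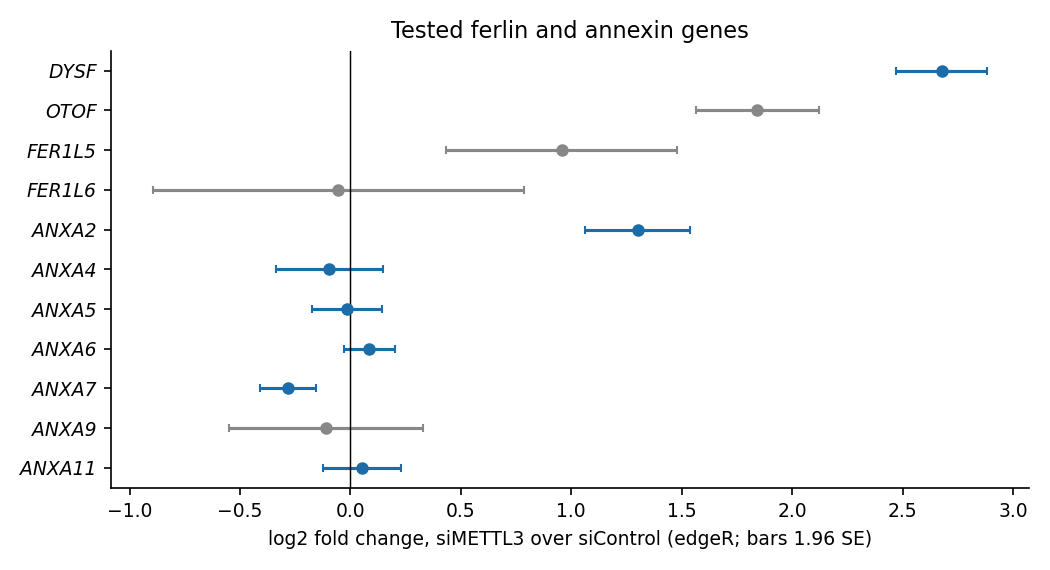
Fitted log2 fold change of siMETTL3 over siControl (points; bars are 1.96 SE) for the ferlin and annexin genes that entered the test, members in blue and other family genes in grey. OTOF (1.84), ANXA2 (1.30) and FER1L5 (0.96) lie to the right of 0, ANXA7 (-0.28) to the left, and the bars of the others cross 0. DYSF (2.68) was picked for its rise, so its point and bar are a description without a test.

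Levels of different genes were compared per kb of canonical transcript. In siControl the order was ANXA6 (33.9 ± 0.597 CPM per kb; SD, n = 3), ANXA5 (22.1 ± 1.11), ANXA7 (21.5 ± 0.233), ANXA4 (6.32 ± 0.880), ANXA2 (5.53 ± 0.589), ANXA11 (4.83 ± 0.460), DYSF (0.732 ± 0.0433), MYOF (0.0515 ± 0.0128) and ANXA1 (0.0316 ± 0.0547). Library ranges overlapped between ANXA5 and ANXA7, between ANXA4 and ANXA2, between ANXA2 and ANXA11, and between MYOF and ANXA1, so these neighbours did not differ beyond their spread over libraries. Within each siControl library, however, ANXA4 stood above ANXA2 and ANXA2 above ANXA11, while ANXA5 and ANXA7 changed places between libraries. In siMETTL3, ANXA2 (13.7 ± 1.51 CPM per kb; SD, n = 3) stood above ANXA4 (5.95 ± 0.686) with no overlap. DYSF, at 4.68 ± 0.176 CPM per kb, overlapped the range of ANXA11 (5.03 ± 0.367). Of the summed level per kb of the 7 annexins, ANXA2 made up 5.44% to 6.59% in siControl and 12.0% to 15.1% in siMETTL3. Per kb of the gene length in the tables, which includes introns, ANXA6 stayed first and DYSF seventh in siControl, and 6 of the 9 places shifted. By that length, DYSF in siMETTL3 (0.136 ± 0.0051 CPM per kb; SD, n = 3) lay below ANXA11 (0.619 ± 0.045) with no overlap. ANXA2 (0.154 ± 0.016) stood above ANXA4 (0.0918 ± 0.0128) with no overlap already in siControl. How the genes of these pairs compared therefore depended on the length used.

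**Figure D3:**
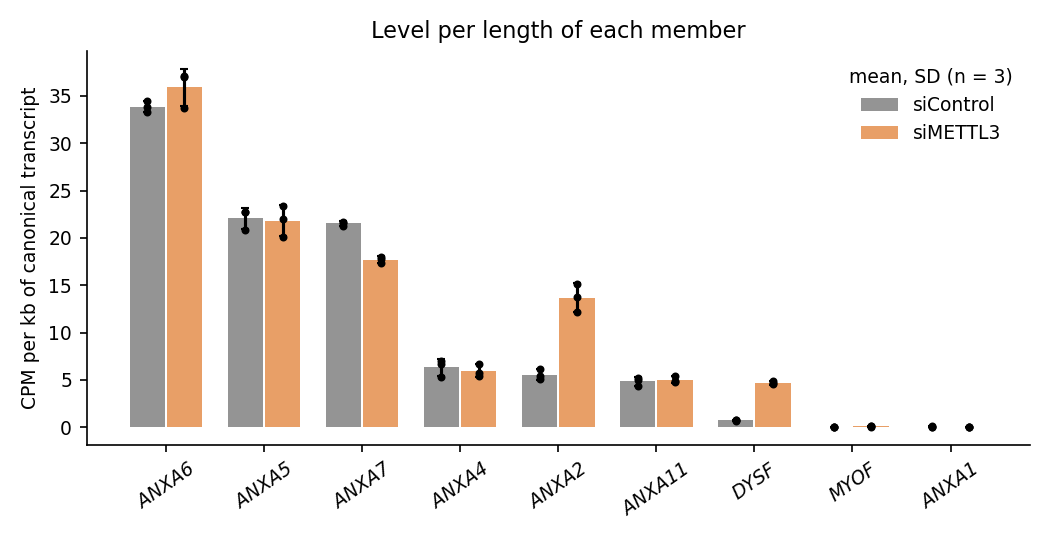
Level of each member in CPM per kb of its canonical transcript, ordered by the siControl mean; bars are means, error bars SD (n = 3) and points libraries, in siControl (grey) and siMETTL3 (orange). ANXA2 (5.53 against 13.7) and DYSF (0.732 against 4.68) are higher in siMETTL3, and ANXA6 is the most abundant in both groups.

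The rest of the families was read from a list of 9 genes, of which 4 were tested. OTOF and FER1L5 were higher, none was lower, and FER1L6 and ANXA9 did not pass. Over all tested genes 18.6% were higher and 19.2% lower. The median log2 fold change of the 4 was 0.45 beside -0.0021 over all tested genes. OTOF (chromosome 2, 26457203 to 26558698) encodes otoferlin, the ferlin of vesicle release in inner-ear hair cells. It was at 6.86, 6.76 and 4.31 CPM in siControl and at 22.0, 22.0 and 21.3 CPM in siMETTL3. The siMETTL3 libraries lay above all siControl libraries, among which replicate 3 was the lowest. OTOF rose by 1.84 on the log2 scale (SE 0.142, FDR 5.97e-07), and by 1.68 without siControl replicate 3. FER1L5, a ferlin of muscle cells, rose from 1.25 ± 0.117 to 2.41 ± 0.383 CPM (SD, n = 3; log2 fold change 0.96, SE 0.268, FDR 0.0121). It did not pass without siMETTL3 replicate 2 (FDR 0.0630). FER1L6 was at 8 to 26 counts in all libraries, with an FDR of 0.935. The annexin genes ANXA3, ANXA8, ANXA8L1, ANXA10 and ANXA13 never exceeded 20 counts. Within the summed level per kb of DYSF, MYOF and OTOF, DYSF made up 40.8%, 43.4% and 53.5% in siControl against 60.8%, 58.9% and 60.8% in siMETTL3. The siControl library with the highest share was replicate 3, where OTOF was lowest. The share includes the rise for which DYSF was picked, so it is a description without a test. FER1L5 and FER1L6 were not part of the sum. Per kb of the gene length in the tables, OTOF stood above DYSF in siMETTL3 (0.215 ± 0.0043 against 0.136 ± 0.0051 CPM per kb; SD, n = 3).

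S100 proteins bind the tails of annexins. The 8 listed S100 genes gave 3 tested genes, 1 of them higher and none lower, beside 18.6% and 19.2% of all tested genes. The median log2 fold change of the 3 was -0.063. S100A10, the partner of ANXA2, had 0 to 2 counts in every library, and S100A11, the partner of ANXA1, had 2 to 12. S100A16 rose from 0.725 ± 0.306 to 2.33 ± 0.529 CPM (SD, n = 3; log2 fold change 1.73, SE 0.349, FDR 0.00156). It was at 10, 13 and 16 counts in siControl and 38, 63 and 46 in siMETTL3, and these groups did not overlap.

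The list of genes associated with dysferlin and caveolae held 23 genes, of which 17 were tested. Of these, 7 were higher, 2 were lower and 8 did not pass, beside 18.6% higher and 19.2% lower over all tested genes. The median log2 fold change of the 17 was 0.11. DAG1, which encodes dystroglycan, the link from matrix to the cytoskeleton, rose from 50.9 ± 3.53 to 83.9 ± 2.12 CPM (SD, n = 3; log2 fold change 0.72, FDR 3.03e-06). BIN1, which encodes a membrane-bending protein of muscle T-tubules, rose from 49.8 ± 6.83 to 81.1 ± 5.21 CPM (SD, n = 3; log2 fold change 0.70, FDR 6.76e-05). AHNAK encodes a giant scaffold that binds both dysferlin and the ANXA2 complex. AHNAK rose from 46.9 ± 3.24 to 65.2 ± 2.94 CPM (SD, n = 3; log2 fold change 0.48, FDR 0.000152). The lower genes, named after their values were seen, were CAV3 (log2 fold change -0.45, FDR 0.000918) and EHD1 (-0.27, FDR 0.0275). EHD1 did not pass when any library but siControl replicate 3 was left out, and was at -0.17 (FDR 0.108) without siControl replicate 1. It also did not pass with total count scaling (FDR 0.0536). CAV3, the muscle caveolin, shares 61.5% of its span with RAD18 and parts of it with OXTR and SSUH2, so its reads cannot be told apart from theirs. TRIM72, which encodes the muscle repair protein MG53, and CAV1 never exceeded 4 counts.

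ESCRT proteins pinch off damaged membrane. Of 14 listed genes 13 were tested, 2 higher and 2 lower, beside 18.6% and 19.2% of all tested genes. The median log2 fold change of the 13 was -0.11. CHMP4B, a filament-forming subunit, rose from 16.2 ± 1.42 to 20.7 ± 0.588 CPM (SD, n = 3; log2 fold change 0.35, FDR 0.0109). PDCD6, which encodes ALG-2, the calcium sensor that recruits ESCRT, rose by 0.28 on the log2 scale (FDR 0.00875), but nearly all of its span is shared with the gene AC021087.5, and it did not pass without siMETTL3 replicate 1 (FDR 0.0622). CHMP1B fell by 0.42 on the log2 scale (FDR 0.00206), and its whole span lies within GNAL. PDCD6IP, named after its values were seen, encodes the ESCRT adaptor ALIX and was lower (log2 fold change -0.20, FDR 0.0382). PDCD6IP did not pass under 5 of 17 alternatives. Among these were the fits without siControl replicate 2 (FDR 0.103), siMETTL3 replicate 1 (FDR 0.116) or siMETTL3 replicate 2 (FDR 0.181).

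Lysosomes fuse with the plasma membrane during repair. Of 7 listed genes, all tested, 2 were higher and none lower. The median log2 fold change was 0.21. SYT7, the calcium sensor of this fusion, was at 38.2, 39.9 and 35.5 CPM in siControl and at 69.3, 68.1 and 65.7 CPM in siMETTL3. The groups were well apart, and SYT7 rose by 0.84 on the log2 scale (SE 0.068, FDR 9.32e-07). LAMP1, a lysosomal membrane protein, rose by 0.21 (SE 0.064, FDR 0.0187). LAMP1 did not pass without siMETTL3 replicate 1 (FDR 0.0807) or replicate 2 (FDR 0.0562). Over the 5 lists, 14 of 44 tested genes were higher and 4 were lower, beside 18.6% and 19.2% of all tested genes.

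**Figure D4:**
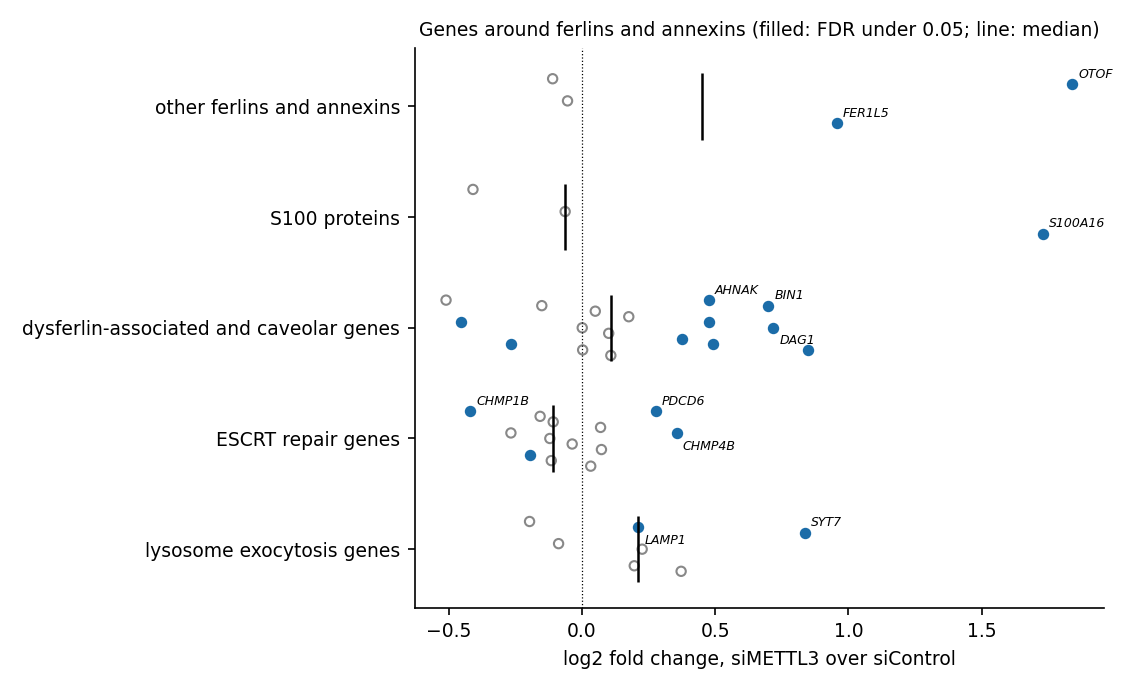
Log2 fold change of siMETTL3 over siControl for the tested genes of the 5 lists, with filled points at an FDR under 0.05, open points above it and a black line at each list's median; the vertical position within a list has no meaning. OTOF (1.84) and S100A16 (1.73) lie farthest to the right, and the ESCRT genes lie on both sides of 0.

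The surroundings of DYSF on chromosome 2 were read over the genes that start within 1000 kb of its own start. Of 15 other tested genes there, 2 were higher, none was lower and 13 did not pass, beside 18.6% higher and 19.2% lower over all tested genes. The nearest on the left, ZNF638, ends 18.7 kb before DYSF, and its level was 258 ± 9.20 CPM in siControl and 269 ± 8.02 CPM in siMETTL3 (SD, n = 3; log2 fold change 0.06, FDR 0.433). The nearest on the right, CYP26B1, lies 442 kb beyond DYSF and encodes an enzyme that clears retinoic acid. It had 26, 20 and 17 counts in siControl and 114, 112 and 120 in siMETTL3. All siMETTL3 libraries were above all siControl libraries, and CYP26B1 rose by 2.30 on the log2 scale (SE 0.212, FDR 2.97e-06). The other higher gene was ATP6V1B1 (log2 fold change 0.52, SE 0.170), named after its value was seen. It did not pass when any of siControl replicates 2 and 3 or siMETTL3 replicates 1 and 3 was left out (FDR up to 0.112). The median log2 fold change of the 15 genes was 0.10.

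**Figure D5:**
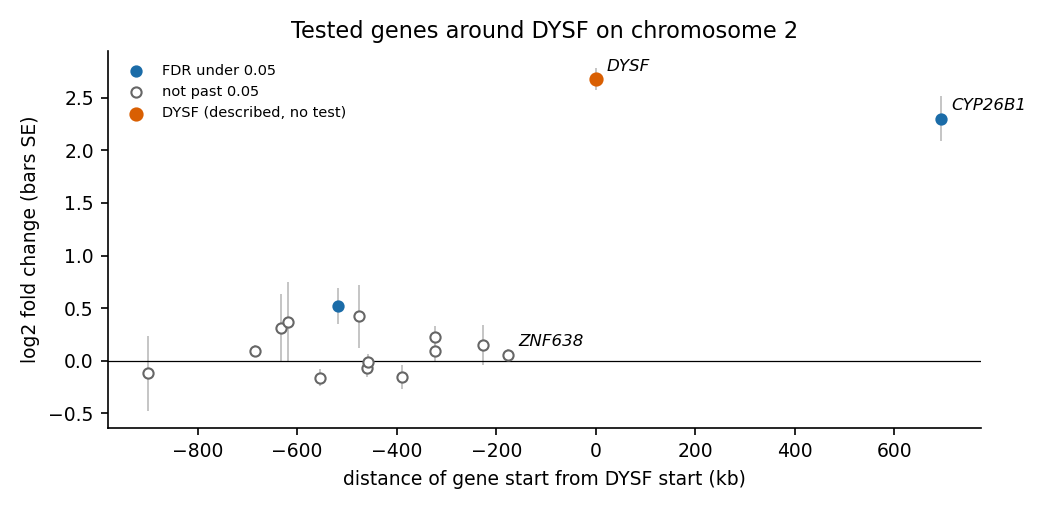
Log2 fold change (points; bars SE) of the tested genes within 1000 kb of the DYSF start, by the distance of their start from it in kb; filled blue points have an FDR under 0.05, open points do not, and DYSF, in orange, is described without a test. DYSF (2.68) and CYP26B1 (2.30) lie above ZNF638 (0.06) and the other genes of the window.

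The genes whose pattern over the 6 libraries was most like that of DYSF were found by the root mean square difference of log2 CPM, each gene centred on its own mean. The closest was STC1 (difference 0.0896), which encodes a secreted glycoprotein, followed by TKTL1 (0.180), a transketolase-like gene, SH3TC2 (0.192), SP6 (0.197) and CARTPT (0.203), which encodes a neuropeptide precursor. Their log2 fold changes were 2.77, 2.79, 2.95, 2.44 and 2.61, beside 2.68 for DYSF. STC1 was at 6.12, 7.76 and 6.50 CPM in siControl and at 47.1, 46.8 and 45.4 CPM in siMETTL3. As these genes were chosen for that likeness, no test is given.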

How the data were processed

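Per the file headers, the authors counted reads per gene with featureCounts v1.5.3 and a protein-only GENCODE release 33 annotation. The deposited values are raw read counts in 1 table per library. The counted feature was the whole gene, introns included, and reads over several genes were counted for each. No strand, read-pair or multi-mapping option was set. The submitters' processing notes also name FastQC 0.11.5, Trimmomatic 0.36, HISAT2 2.1.0 and GRCh38. The header names of the alignment files hold the words picard and input; whether duplicate reads were removed is not given in the sources used here. Gene coordinates are the tables' own, on GRCh38 and counted from 1.

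Groups came from the sample titles. Genes were filtered with filterByExpr (15311 kept), scaled by TMM and compared with edgeR 4.0.16 in R 4.3.3 (robust quasi-likelihood F-test, 3 against 3 libraries, no covariate). FDR is the Benjamini-Hochberg value over all tested genes, with a threshold of 0.05. SEs were derived from each gene's fold change and F statistic. CPM uses the TMM-scaled library size. The fit was also run on simulated data in which only a small part of the genes changed. As 37.8% of the tested genes passed here, that run does not cover this setting.

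The members and gene lists were chosen with earlier results of these data known. Named were the members, METTL3, up to 3 genes per list with the smallest FDR, the tested neighbours of DYSF and the 5 genes most like it (prior count 2). Alternatives were other scalings and filters, DESeq2 1.42.0, limma 3.58.1 (voom), no robust option, a replicate block, an offset for gene span, genes without overlaps and each library left out. Promoter sequences came from a RefSeq table that held every member and OTOF, and transcript sequences from GENCODE release 44.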

Additional observations from a re-analysis of the deposited data

How the results depend on the processing

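DYSF stayed higher under all 17 alternatives, with a log2 fold change from 2.63 to 2.72 when each library was left out. The offset for gene span moved it most, to 2.58, more than the replicate SD of 0.086. ANXA2 (FDR at most 0.000121) and ANXA7 (at most 0.0196) kept their calls and directions, as did METTL3. Near 0, signs turned without a call. With total count scaling ANXA5 was at 0.0071, and with the span offset ANXA6 was at -0.012, ANXA11 at -0.041 and ZNF638 at -0.047. With a library left out, ANXA5 ranged from -0.067 to 0.040 and ANXA11 from -0.018 to 0.11. The span offset shifted the median of all genes to -0.054. On genes without overlaps, 1855 were higher and 1899 lower, of 9516 tested. With a library left out, the counts ranged from 2091 to 3178 higher and from 2119 to 3216 lower. For the 5 gene lists they ranged from 11 to 14 higher and from 2 to 6 lower. The 2 were found when siControl replicate 2 or any of siMETTL3 replicates 1 and 2 was left out, and also with total count scaling. Apart from DYSF, 30 genes gave 505 values, of which 28 lost a call, 4 gained one and 9 turned sign. MYOF entered the test with no filter (log2 fold change 0.64, FDR 0.469) and in some fits with a library left out (log2 fold change 0.48 to 0.89). Over the 5 alternatives in which it entered, its FDR was 0.233 to 0.558.

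Whether the replicate numbers pair the libraries cannot be told. Deviations from the group means correlated only weakly for equal numbers, at 0.040, 0.049 and 0.067, though each library correlated best with its own number. For unequal numbers the correlations ran from -0.064 to 0.026. With the replicate block 6166 genes were called instead of 5786, DYSF was at 2.68, and no member changed its call. For members at a few counts, such as MYOF and ANXA1, depth limits what can be seen.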

Other observations

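The EHD genes encode membrane-remodelling ATPases that gather at membrane wounds and at caveolae, and all 4 passed the test with all libraries, as did 37.8% of all tested genes. They and the calpains below were singled out after their values were seen. EHD4 rose from 8.11 ± 1.86 to 14.8 ± 0.854 CPM (SD, n = 3; log2 fold change 0.85, SE 0.148, edgeR FDR 0.000537), with all siMETTL3 libraries above all siControl libraries. EHD3 rose from 22.0 ± 2.69 to 31.05 ± 0.610 CPM (SD, n = 3; log2 fold change 0.49, edgeR FDR 0.00113). EHD2, the caveolar member, rose from 3.74 ± 0.155 to 5.23 ± 0.603 CPM (SD, n = 3; log2 fold change 0.48, edgeR FDR 0.0408), but it did not pass under 9 of 17 alternatives, 5 of them with 1 library left out (FDR up to 0.158). EHD1 went the other way, from 44.1 ± 5.50 to 36.7 ± 0.798 CPM (SD, n = 3; log2 fold change -0.27, edgeR FDR 0.0275), and it did not pass with any library but siControl replicate 3 left out (FDR up to 0.108).

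Among the calpains, the calcium-activated proteases that cleave dysferlin at wounds, CAPN1 rose from 46.6 ± 0.275 to 60.6 ± 5.74 CPM (SD, n = 3; log2 fold change 0.38, edgeR FDR 0.00140). CAPN2 (-0.15, edgeR FDR 0.0579) and the shared small subunit CAPNS1 (0.18, edgeR FDR 0.0822) did not pass. CAPN2 passed under 3 alternatives, among them the offset for gene span (-0.26, edgeR FDR 0.00225), and CAPNS1 under 1, without siControl replicate 1 (edgeR FDR 0.0443). The muscle calpain CAPN3 (0.11, edgeR FDR 0.775) did not pass, and 98.8% of its span is shared with the gene AC012651.1.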
